A study of Drosophila mojavensis with 172 samples.

Results

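The 50 transcripts described here were chosen from the larval arrays of a diet experiment in Drosophila mojavensis, out of 14528 transcripts measured. For each transcript the organ pipe minus agria difference of log2 group means was averaged over the 3 larval instars in each of 2 populations, and the 50 transcripts whose higher (less negative) value of the 2 was lowest were kept. They therefore carry a lower larval average on organ pipe by choice, and every larval diet value below is a description with no test. The average hides a split between instars: the 50 were lower on organ pipe in the first and the third instar, and in the second instar they were higher on organ pipe in Las Bocas and without a common direction in Punta Prieta. A plain reading of the set as lowered on organ pipe through larval life does not match the second instar. The Las Bocas excess at the second instar was smaller, and not shared by all members, without agria arrays that correlated better with another stage. In Punta Prieta the first instar had 2 organ pipe arrays and the third had 1. Of the 50, 10 remained when the choice used the first and second instars alone.

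Drosophila mojavensis is a cactophilic fly: females lay eggs in the rotting tissue of columnar cacti, and larvae feed there on the decaying tissue and the microbes in it. Mainland Sonoran populations mainly use organ pipe cactus, and those of Baja California mainly use agria. The cacti differ in their chemistry, so larval diet is a long-studied axis of difference in this species. Larvae grow through successive instars separated by moults, and the adult body then forms in the pupa.

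RNA of whole wild-type animals was measured on 172 single-colour arrays, and all values are log2 signals. The flies came from Las Bocas (LB) and Punta Prieta (PP), and were kept as bottle cultures under a daily cycle of light and temperature. Larvae were raised on laboratory media made with organ pipe (OP) or agria (AG) tissue, pupae came from larvae raised in that way, adults were females, and 6-hour eggs came from mothers raised on the named diet. The labels give no sex before the adult stage. The choice used 45 larval arrays, 18 on organ pipe and 27 on agria. In Las Bocas there were 4 organ pipe and 4 agria arrays of the first instar (L1), 4 and 5 of the second (L2), and 4 and 5 of the third (L3). In Punta Prieta there were 2 and 4 arrays at L1, 3 and 4 at L2, and 1 and 5 at L3, so the last comparison has no replicate on organ pipe. Tests compared the 16 egg, 25 pupal and 84 adult female arrays (0, 3, 6, 10, 14, 18 and 24 days) that the choice did not use. Their estimate of the spread came from all 54 groups, larval groups included, so the tests are not fully independent of the choice. The tables used here pair none of the 14528 transcript IDs with a gene name, so transcripts are given by ID, with no role and no sequence.

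Before the results, 13 of the 170 arrays compared stand apart from their labels. Each correlated better, by a margin over 0.05, with the mean of another stage than with the mean of its own, and 10 of the 13 are larval. At L1 they are Las Bocas agria replicates 1, 2 and 4, which were nearest to L2. At L2 they are Las Bocas agria replicates 3 and 4, nearest to L1, and replicate 5, nearest to L3. At L3 they are Las Bocas organ pipe replicates 2 and 4, nearest to L1, and Punta Prieta agria replicates 4 and 5, nearest to L2. The other 3 are a 0-day Las Bocas agria array (replicate 4, nearest to L2) and Punta Prieta agria late pupae replicates 2 and 3, nearest to early pupae and to L1. Larval and pupal summaries below are also given without them where that moves the value.

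At the top of the set, FBtr0172226 had a value of −1.12 and FBtr0161265 one of −0.90. Just inside the limit were FBtr0164398 at −0.598 and FBtr0175482 at −0.597, and just outside it FBtr0170028 at −0.596 and FBtr0161902 at −0.595. No gap separates the last members from the next transcripts, and the rank at which the set ends has no meaning of its own. Of all 14528 transcripts, 4736 had a value below 0.

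The larval pattern shows in FBtr0172226, the first by rank. At L1 in Las Bocas its 4 organ pipe arrays read 12.15, 12.85, 13.66 and 9.61, against 13.62, 14.69, 14.28 and 14.47 on agria. At L2 they read 13.39, 13.69, 13.16 and 13.27 on organ pipe, against 13.94, 13.88, 12.66, 9.75 and 10.27 on agria. At L3 they read 11.54, 9.43, 9.20 and 9.18 on organ pipe, against 12.39, 13.52, 11.58, 13.48 and 10.46 on agria. The diets touched or overlapped at each instar, and the L2 excess on organ pipe came with 2 low agria arrays, replicates 4 and 5, both nearer to another stage. In Punta Prieta it read 12.64 and 9.47 at L1 on organ pipe, against 9.82, 13.22, 13.34 and 12.56 on agria. At L2 it read 12.81, 13.70 and 13.11 on organ pipe, against 14.02, 12.78, 13.12 and 13.64 on agria. At L3 the single organ pipe array read 9.57, against 12.83, 11.39, 12.61, 12.93 and 13.04 on agria. The diets overlapped in Punta Prieta at L1 and L2, and at L3 the lone organ pipe array lay below all 5 agria arrays. Its mean difference over both populations was −2.72 at L3, the lowest of the 50 at that instar.

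FBtr0161265, the next by rank, separated more clearly in Las Bocas. At L1 it read 9.15, 9.63, 10.05 and 9.22 on organ pipe, against 12.02, 12.70, 11.12 and 12.16 on agria. At L3 it read 10.67, 8.83, 9.49 and 9.44 on organ pipe, against 11.63, 11.65, 11.30, 12.80 and 10.81 on agria. At L2 the order turned, with 13.13, 13.37, 13.08 and 12.51 on organ pipe, against 13.53, 11.88, 11.92, 9.24 and 10.95 on agria. Every organ pipe array lay below every agria array at L1 and at L3, while at L2 the organ pipe arrays stood above all agria arrays but one. In Punta Prieta it read 9.63 and 9.30 at L1 on organ pipe, against 9.67, 8.87, 11.65 and 9.29 on agria, and the diets overlapped. The single L3 array on organ pipe read 10.91, against 12.96, 13.22, 11.15, 13.19 and 12.89 on agria, and lay below all of them.

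Over the 50 members at L1 in Las Bocas, the median organ pipe minus agria difference was −1.92 on the log2 scale, from −2.82 to −0.83, and the median of all transcripts was 0.11. All 50 were lower on organ pipe, as were 44.2% of all transcripts. In 37 of them every organ pipe array was below every agria array, which held for 15.7% of all transcripts. Without the 3 agria arrays nearer to L2 the median was −1.67, with 1 agria array left, and all 50 were lower. At L1 in Punta Prieta the median was −0.89, from −2.02 to −0.03, and again all 50 were lower, beside 46.9% of all transcripts. The arrays separated in 3 members there, beside 4.14% of all. The median rests on 2 organ pipe arrays: it was −0.14 without replicate 2 and −1.56 without replicate 1. Fewer cells of a type and less RNA per cell cannot be told apart in whole animals.

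At L2 in Las Bocas all 50 were higher on organ pipe, with a median difference of 1.42, from 0.56 to 2.02, beside 42% of all transcripts. The arrays separated upward in 3 members and in 1.28% of all transcripts. Without the 3 Las Bocas agria arrays of L2 that were nearer to another stage, the median was 0.22, and 35 members were higher and 15 lower. Leaving out replicate 4 of that group alone gave 0.92. At L2 in Punta Prieta the median was −0.05, from −0.74 to 0.23, with 32 members lower and 18 higher, beside 43% of all transcripts lower and 57% higher. The arrays separated downward in 0 members, beside 0.496% of all. That median took the other sign, 0.14, without organ pipe replicate 1, and 0.11 without agria replicate 1. Averaged over both populations, FBtr0163352 had the lowest L2 difference of the 50, and it was 0.18.

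At L3 in Las Bocas the median was −1.67, from −2.45 to −0.98, with all 50 lower on organ pipe, beside 39.3% of all transcripts. The arrays separated in 2 members, and in 0.275% of all. Without the 2 organ pipe arrays nearer to L1, the median was −0.72 and 48 members were lower. At L3 in Punta Prieta the median was −1.24, from −2.99 to −0.13, with all 50 lower, beside 45% of all transcripts. The single organ pipe array lay below every agria array in 46 members, and did so in 22.7% of all transcripts. Without the 2 agria arrays nearer to L2 that median was −1.10 and all 50 were lower. With the SD of each array's values as a covariate it was −0.58, and 46 members were lower.

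Across the 6 combinations of population and instar, 0 members were lower on organ pipe in all 6, 32 were lower in 5 and 18 in 4. Among all transcripts, 102 were lower in all 6, and none of them is among the 50. All 50 were higher at L2 in Las Bocas, which by itself keeps every member from being lower in all 6. As given above, some members were lower there without the Las Bocas agria arrays of L2 that were nearer to another stage. The plot of differences by instar shows the L2 columns apart from the rest.

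**Figure D1:**
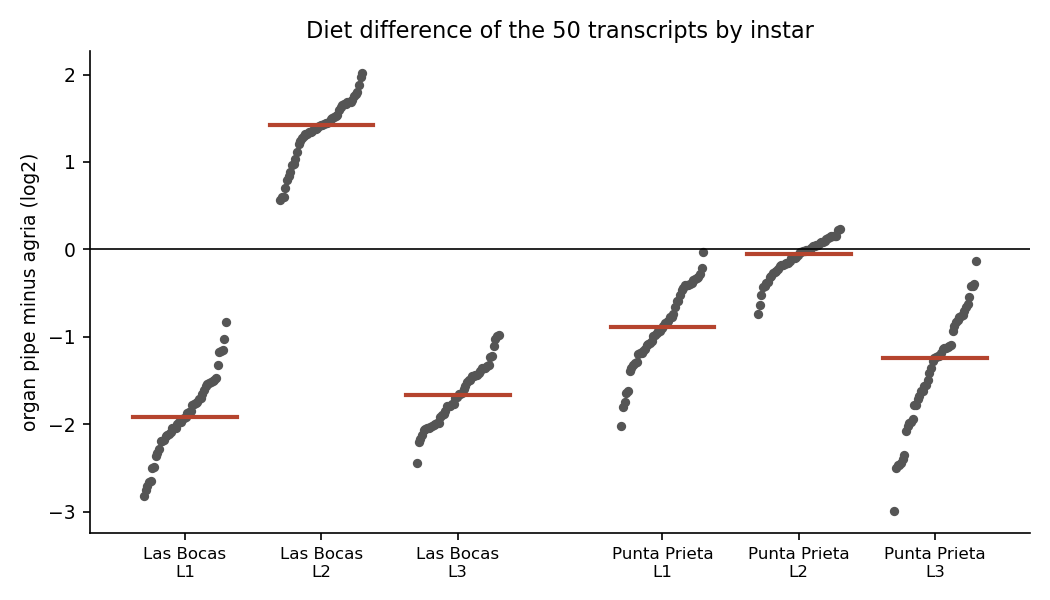
Difference of log2 group means, organ pipe minus agria (y axis), for each of the 50 transcripts (points, sorted within a column) by population and instar (x axis), with the median of the 50 as a bar. The medians are −1.92, 1.42 and −1.67 in Las Bocas at L1, L2 and L3, and −0.89, −0.05 and −1.24 in Punta Prieta, where L3 rests on 1 organ pipe array.

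The mean of the 50 on each array shows how single arrays carry these medians. In Las Bocas at L1 it was 12.00, 12.10, 13.05 and 10.34 on organ pipe, against 13.59, 14.07, 13.57 and 13.86 on agria. At L2 it was 13.58, 13.86, 13.79 and 13.53 on organ pipe, against 13.89, 13.06, 12.24, 10.34 and 12.04 on agria. At L3 it was 13.19, 10.03, 11.38 and 10.89 on organ pipe, against 13.78, 13.41, 12.67, 13.51 and 11.84 on agria. The diets were apart at L1 alone, at 11.87 ± 1.13 on organ pipe against 13.77 ± 0.24 on agria (SD, n = 4 each). The spread was wide on organ pipe at L1 and L3 and on agria at L2, and narrow on agria at L1 and on organ pipe at L2. In Punta Prieta at L1 it was 11.67 and 10.25 on organ pipe, against 10.88, 11.60, 12.83 and 12.07 on agria. At L2 it was 12.86, 13.76 and 13.35 on organ pipe, against 14.01, 12.73, 13.31 and 13.63 on agria. At L3 it was 12.17 on organ pipe, against 13.52, 13.18, 13.34, 13.89 and 13.81 on agria. In Punta Prieta the replicated groups overlapped at both instars, and only the lone L3 array stood below its agria counterparts.

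**Figure D2:**
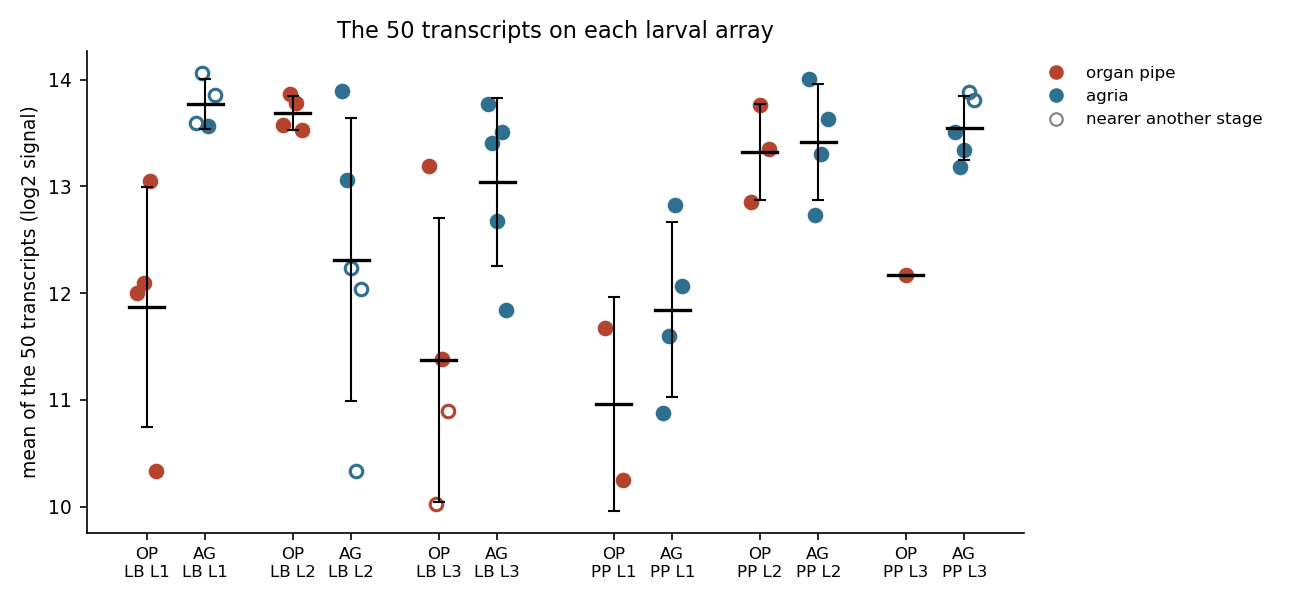
Mean log2 signal of the 50 transcripts on each larval array (points) by diet, population and instar (x axis), with the group mean (bar) and SD (whiskers) where a group has over 1 array. Open points are arrays nearer to another stage. In Las Bocas at L1 the 4 organ pipe arrays, 10.34 to 13.05, lie below the 4 agria arrays, 13.57 to 14.07, and at L2 the 4 organ pipe arrays, 13.53 to 13.86, lie within the wide agria range of 10.34 to 13.89.

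The SD of all values on an array also ranged lower on organ pipe in each comparison in which all 50 were lower. At L1 in Las Bocas it was 1.39 to 1.46 on organ pipe and 1.45 to 1.57 on agria. At L3 there it was 1.31 to 1.42 and 1.34 to 1.53. In Punta Prieta it was 1.34 to 1.37 and 1.35 to 1.45 at L1. At L3 there the single organ pipe array had 1.39, against 1.44 to 1.599, the only comparison without overlap. At L2 the organ pipe range lay within the agria range in both populations. With that SD as a covariate, the L1 median of the members in Las Bocas was −1.40 and all 50 were lower.

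Among the members, FBtr0174645 had the lowest L1 difference averaged over both populations, −1.92. In Las Bocas it read 13.54, 12.46, 13.74 and 9.21 on organ pipe, against 14.11, 14.62, 14.02 and 14.37 on agria. In Punta Prieta it read 9.82 and 9.02 on organ pipe, against 10.20, 10.79, 13.09 and 10.81 on agria. The diets did not overlap in either population at L1, and the same transcript had the largest L2 excess on organ pipe in Las Bocas, 2.02. It also varied most between replicates, with an SD within larval groups of 1.40. FBtr0162056 varied least, with an SD of 0.653, and at L1 in Las Bocas it read 12.17, 11.54, 12.69 and 10.76 on organ pipe, against 13.48, 13.81, 13.24 and 13.72 on agria. Its diets were apart there as well.

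Levels within the set spanned a wide range. FBtr0162465 had the highest mean over larval arrays, 14.33, and in Las Bocas at L3 it read 14.50, 10.51, 12.76 and 12.52 on organ pipe, against 15.12, 14.93, 14.67, 14.83 and 13.58 on agria. Organ pipe replicate 1 of that group lay within the agria range, and the other 3 lay below it. FBtr0162989 had the lowest mean, 10.74, and the lowest L1 difference in Las Bocas, −2.82. At L1 there it read 10.85, 11.16, 12.98 and 8.47 on organ pipe, against 13.38, 14.21, 13.27 and 13.89 on agria, with no overlap. Over all arrays of the study the median level of the members was 13.02, against 11.29 for all transcripts, and 41 of the 50 were above that median, so the set is mostly of bright transcripts.

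The choice was repeated on L1 and L2, the instars at which every group has 2 or more arrays. The 50 transcripts lowest over L1 and L2 share 10 with the 50 described here. Of the 50, 48 kept a value below 0, beside 4509 transcripts of the whole table. Their values ran from −0.52 to 0.06 with a median of −0.26, while the 50th transcript of the repeated choice had −0.40 and its lowest −0.78. The median rank of the members fell to 413 of 14528. By population the medians of the members were −0.28 in Las Bocas and −0.50 in Punta Prieta. With L1 to L3 in Las Bocas and L1 and L2 in Punta Prieta, which is the choice without the single Punta Prieta organ pipe array of L3, 23 of the 50 remained. Leaving out 1 of the 2 Punta Prieta organ pipe arrays of L1 kept 28 (without replicate 1) or 24 (without replicate 2).

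Within larval groups the members moved together between replicates. This was read from departures of 44 larval arrays from the means of their 11 groups. The same arrays chose the members, and a choice of extreme differences between small groups favours transcripts that vary between replicates, so these values are a description of the set and not a trait independent of the choice. Over 1225 pairs of members the median correlation of these departures was 0.81, from 0.35 to 0.98, and 98.9% of pairs exceeded 0.5. The first principal component held 80.4% of the variance of the members. Taking every 20th of all transcripts, 727 in number and not matched to the members, the median was −0.004. The members had a median SD within larval groups of 0.925, against 0.384 for all transcripts, and even the least variable member lay at percentile 91.2. Without the arrays nearer to another stage, over 33 arrays, the median correlation was 0.78. Each member correlated with the mean of the other 49 at 0.70 or more, with a median of 0.90. Of the other 14478 transcripts, 1553 (10.7%) correlated with the mean of the 50 at 0.7 or more and 1418 (9.79%) at −0.7 or less, so the axis along which the arrays differed is shared far beyond the set. In Las Bocas agria L2, replicate 1 had the highest mean of the 50 and array SD (13.89, 1.58). Replicate 4 had the lowest of each (10.34, 1.31). In that group array SD ranked all arrays as the mean of the 50 did. It also did so in both Las Bocas groups of L3 and both Punta Prieta groups of L2. In Punta Prieta organ pipe L1, with 2 arrays, the order was opposite, at 11.67 with SD 1.34 and 10.25 with SD 1.37. In the remaining larval groups with over 1 array the ranks matched in part. Whether the shared movement goes with array SD was not tested.

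**Figure D3:**
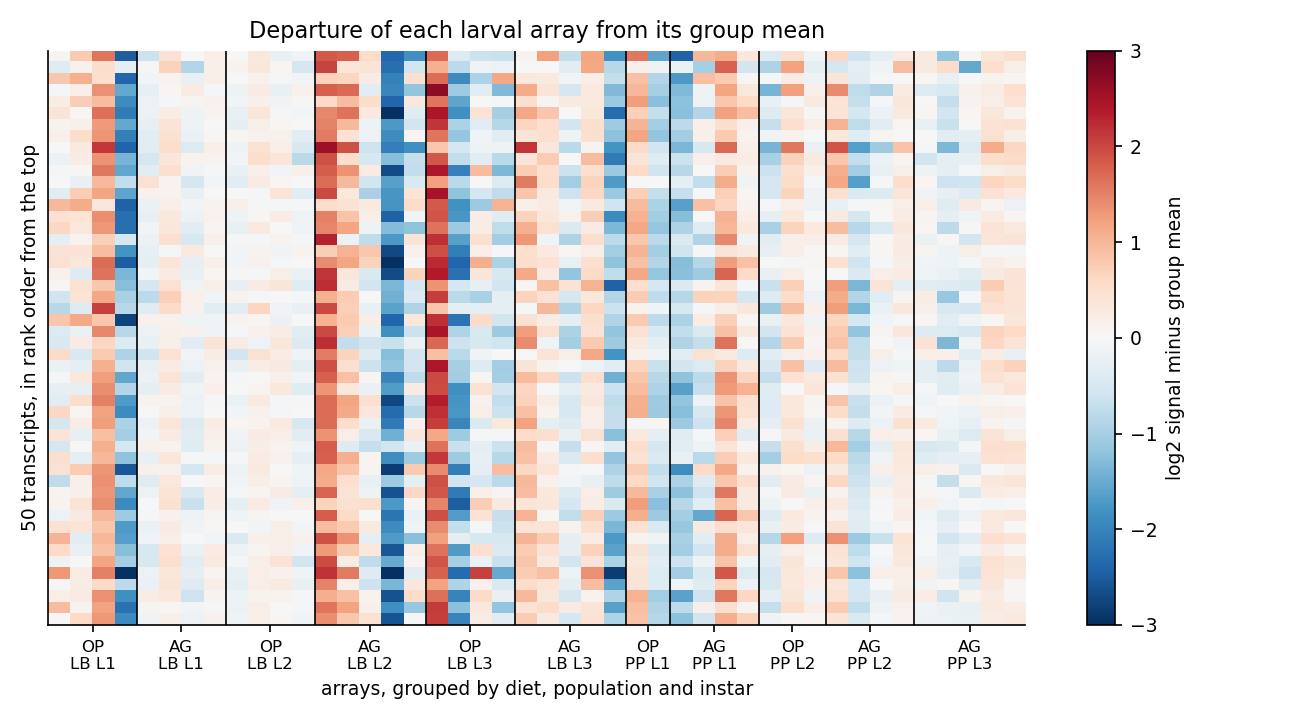
Departure of each larval array from the mean of its group (colour, log2) for the 50 transcripts in rank order (rows) and 44 arrays by group (columns, parted by lines). The Punta Prieta organ pipe group of L3 has 1 array and is left out. Most columns have 1 colour throughout, as the median correlation of 0.81 between members states.

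The shared movement was weaker outside larvae. The median correlation between members within groups was 0.60 over 24 pupal arrays, 0.15 over 80 adult arrays and −0.01 over 16 egg arrays. Without arrays nearer to another stage it was 0.55 in pupae and 0.09 in adult females. The members' median SD within groups was 0.732 in pupae, against 0.471 for all transcripts, and in eggs it was 0.246 against 0.253. In adult females it was 0.235 against 0.267. The members thus varied more than transcripts at large within larval and pupal groups, and not within egg or adult groups.

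The course of the members through the instars differed between the 4 series of population and diet, and is given with no test because the choice used these arrays. On organ pipe all 50 were higher at L2 than at L1, with a median step of 1.79 in Las Bocas and 2.28 in Punta Prieta. From L2 to L3 on organ pipe all 50 were lower in Las Bocas (median −2.29) and 46 in Punta Prieta (median −1.01). On agria in Punta Prieta 49 were higher at L2 (median 1.68), and 38 were higher again at L3 (median 0.16). On agria in Las Bocas the course ran the other way: all 50 were lower at L2 than at L1 (median −1.35) and 48 were higher at L3 than at L2 (median 0.73). Las Bocas agria is the series with 6 arrays at L1 and L2 that were nearer to another stage. Without them, with 1 array left at L1 and 2 at L2, the medians of that series were −0.08 (28 lower at L2) and −0.36 (41 lower at L3). Without such arrays the L2 to L3 median was −1.32 on organ pipe in Las Bocas, with all 50 lower, and −0.05 on agria in Punta Prieta, with 29 lower. Averaged over the 4 series, all 50 were higher at L2 than at L1 with a median of 1.09. The step was 1 or more in 29 members, and in 4.12% of all transcripts. Without arrays nearer to another stage all 50 were still higher at L2, with a median of 1.44.

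Over the life cycle the mean of the 50 was 12.06 in eggs, 12.11 at L1, 13.19 at L2, 12.53 at L3, 11.53 in early pupae, 12.72 in late pupae and 13.28 in 0-day females. In older females it lay between 12.64 and 13.16. Of the 50, 19 had their highest stage mean in 0-day females, against 13.1% of all transcripts, and 10 had it at L2, against 3.39%. The L2 arrays were used by the choice. The members' median step from late pupae to 0-day females was 0.54, and −0.30 with array SD as a covariate. The lowest stage mean fell in early pupae for 22 members, against 8.85% of all. The span between the highest and the lowest stage mean had a median of 3.04, against 1.97 for all transcripts. Without arrays nearer to another stage the means were 12.06, 13.48 and 12.71 at L1, L2 and L3, 12.87 in late pupae and 13.31 in 0-day females.

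**Figure D4:**
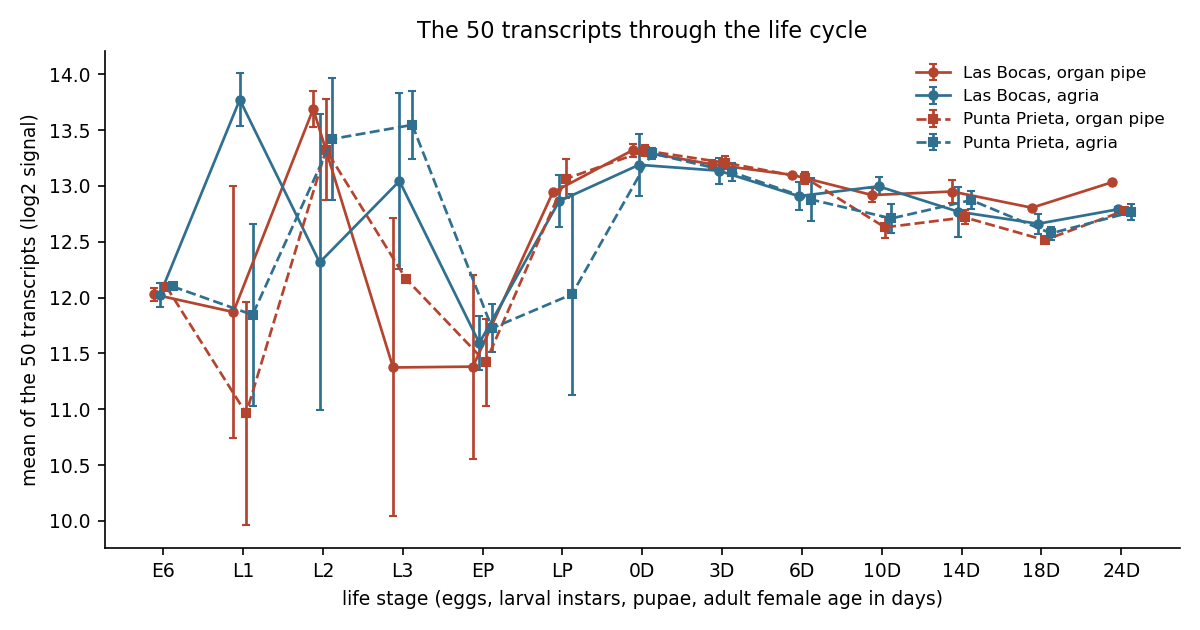
Mean log2 signal of the 50 transcripts (y axis) by life stage (x axis; E6 is 6-hour eggs, L1 to L3 are larval instars, EP and LP early and late pupae, and D the age of females in days) for each population and diet, with SD over arrays as whiskers where a group has over 1 array. The 4 series part widely from L1 to L3, where group means lie between 10.96 and 13.77, and run close together in eggs and in females.

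A small group is larval. In 6 of the 50, and in 0.62% of all transcripts, the lowest instar mean was at least 1 above the mean of every other stage. The instar means come from the arrays that chose the members, so these shares are a description and not a trait independent of the choice. FBtr0162465 stood 3.86 above, with stage means of 14.22, 14.49 and 14.15 at L1, L2 and L3, 10.28 in early pupae and 9.36 in 0-day females. FBtr0163352, FBtr0163353 and FBtr0164164 stood 2.76, 3.25 and 3.30 above, and FBtr0170629 and FBtr0173897 stood 1.37 and 1.03 above. Without arrays nearer to another stage the same 6 kept a margin of at least 1, from 1.08 to 4.00. They were chosen after their values were seen. FBtr0172226, the first by rank, had stage means of 12.41, 13.02 and 11.06 at L1, L2 and L3 but 12.39 in late pupae, and between 8.63 and 9.41 from 3 days on.

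Whether the diet difference of larvae extends to pupae was tested with limma over all 14528 transcripts, which calls 0.42% of them. Of the 50, 1 passed and was higher on organ pipe, beside 0.234% of all transcripts, and 0 were lower, so no member continued its larval direction past the threshold. The median difference of the members was 0.12, beside −0.03 for all transcripts, and 2 members had an unadjusted p under 0.05. The transcript that passed was FBtr0163131, at 1.21 ± 0.30 (SE, limma, adjusted p = 0.0354).

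By pupal stage the members' medians had opposite signs. In early pupae 34 were below 0 and 16 above, with a median of −0.24, beside 0.04 for all transcripts. None passed limma's test there, which calls 1.88% of transcripts, and 6 had an unadjusted p under 0.05. By population, 36 were lower in Las Bocas and 31 in Punta Prieta, with a median of −0.18 in each. Without Las Bocas organ pipe replicate 3, 4 members passed, all lower on organ pipe, and the median was −0.51. The share of all transcripts in that fit is not given here. With array SD as a covariate the median was −0.04.

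In late pupae 45 members were above 0, with a median of 0.53, and 1 passed limma's test, upward. That test calls 9.42% of transcripts, 1.7% higher on organ pipe. The median was 1.14 in Punta Prieta, where 47 were higher on organ pipe, and 0.04 in Las Bocas, where organ pipe has 1 array. The Punta Prieta agria group holds the 2 late pupal arrays nearer to earlier stages. Without the arrays nearer to another stage the median was 0.28 and 0 members passed. With array SD as a covariate it was 0.32 and 1 passed. Without replicate 4 of that group 9 passed, all higher on organ pipe, without replicate 1 of it 3 passed, and without Punta Prieta organ pipe replicate 2, 2 passed. Shares of all transcripts in these fits are not given here. The interaction of diet and population in pupae called 0 members and 2.3% of all transcripts, with 5 members at an unadjusted p under 0.05.

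FBtr0163131 was the member called in late pupae, at 2.23 ± 0.48 (SE, limma, adjusted p = 0.00297). In Punta Prieta late pupae it read 12.46, 9.10, 12.62 and 12.21 on organ pipe, against 8.86, 9.16, 8.87 and 12.21 on agria. In Las Bocas late pupae it read 12.71 on organ pipe, against 9.51 and 10.64 on agria. The Punta Prieta groups overlapped: 1 organ pipe array was at the low level of the agria group, and 1 agria array at the high level of the organ pipe group. In early pupae it was low on every array, at 9.09, 9.00 and 8.83 on organ pipe against 8.96, 8.67, 8.45 and 8.63 on agria in Las Bocas. In Punta Prieta early pupae it was 9.15, 8.86, 9.38 and 9.24 on organ pipe against 9.20, 9.14 and 8.85 on agria. A rise between early and late pupae was thus part of its course, with stage means of 8.97 and 11.04. Without the arrays nearer to another stage its late pupal difference was 1.85 (limma, adjusted p = 0.0803). With late pupal arrays alone setting the spread, its difference stayed at 2.23 and limma's adjusted p was 0.90. Without the single Las Bocas late pupal array on organ pipe the pupal difference was 0.20 (limma, adjusted p = 0.795), since early pupae alone then remain.

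In adult females limma called 1.84% of all transcripts for diet, and 1 of the 50. It was higher on organ pipe, as were 1.61% of all transcripts, and the median difference of the members was 0.03, beside −0.02 for all transcripts. That transcript was FBtr0161265, one of the lowest on organ pipe in larvae, at 0.62 ± 0.16 (SE, limma, adjusted p = 0.0167). It was the only member with an unadjusted p under 0.05. With the spread taken from the adult stages alone, 7 members were called, 6 higher and 1 lower on organ pipe. The share of all transcripts in that setting is not given here.

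In females of Las Bocas FBtr0161265 read 13.28 and 12.48 at 6 days on organ pipe, against 12.18, 11.63 and 12.45 on agria. At 10 days it read 13.12 and 12.80 on organ pipe, against 11.71, 11.83, 11.16 and 12.23 on agria. At 14 days it read 13.40 and 12.99 on organ pipe, against 11.64, 11.28 and 11.94 on agria. From 6 days on the diets did not overlap in Las Bocas, while at 0 and 3 days they did. In Punta Prieta at 10 days it read 11.63 and 11.70 on organ pipe, against 11.34, 11.93, 12.53 and 12.31 on agria. At 14 days it read 12.68 and 12.74 on organ pipe, against 12.43, 12.45 and 12.22 on agria. The diets of Punta Prieta overlapped at 10 days and were apart at 14 days. The interaction, its difference in Punta Prieta less that in Las Bocas, was −0.71 ± 0.32 (SE) with an unadjusted p of 0.0255 in limma's fit, and it did not pass after adjustment. With quantile normalization repeated, its diet difference was 0.61 with an adjusted p of 0.0619 in limma.

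At single adult ages where every group has 2 or more arrays, limma called 0 members for diet. Of all transcripts it called 0.00688% in 0-day females, 11.8% in 3-day, 3.46% in 6-day and 0.179% in 10-day females. Members with an unadjusted p under 0.05 numbered 0, 1, 3 and 1 at these ages in turn. The members' median was 0.06, 0.04, 0.16 and −0.06 in the same order, and each took the other sign with array SD as a covariate, at −0.04, −0.08, −0.02 and 0.22. The median over all adult ages did so too, at −0.02. The spread in these tests came from all groups. Within larval groups the members' median SD was 0.925, against 0.384 for all transcripts, and within adult groups 0.235 against 0.267. With the spread of the tested stages alone, 10 members were called at 3 days, 5 higher and 5 lower. At 10 days 2 were called, each lower. The shares of all transcripts in that setting are not given here. In eggs limma called 0 of the 50 and 0% of all transcripts, 0 members had an unadjusted p under 0.05, and the median was −0.01. The plot of diet effects outside larvae marks the 2 members that passed, and shows members at single stages with larger differences than that of FBtr0161265 that did not pass. The interaction in adult females called 0 of the 50 and 0% of all transcripts, with 1 member at an unadjusted p under 0.05.

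**Figure D5:**
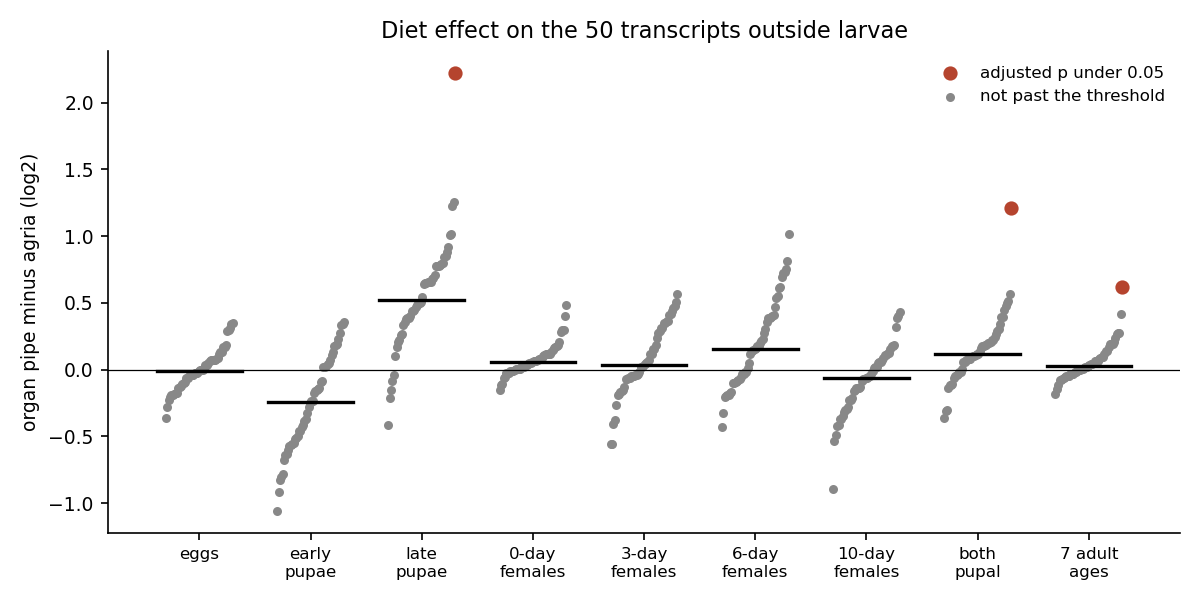
Organ pipe minus agria difference (log2, y axis) of the 50 transcripts (points, sorted within a column) in eggs, pupae and adult females (x axis), with the median of the 50 as a bar. Large points passed limma's test: FBtr0163131 in late pupae (2.23) and over both pupal stages (1.21), and FBtr0161265 over the adult ages (0.62).

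Populations were compared as Punta Prieta minus Las Bocas over both diets, again outside larvae. In eggs limma called 1 of the 50, lower in Punta Prieta, beside 4.89% of all transcripts called and 1.36% called lower. FBtr0168023 fell by 1.03 ± 0.31 on the log2 scale (SE, limma, adjusted p = 0.0300). In Punta Prieta eggs it read 11.98, 12.50, 12.55, 11.91 and 12.15 on organ pipe and 11.62, 13.34, 12.18 and 11.99 on agria. In Las Bocas eggs it read 13.10, 13.49, 13.28 and 12.94 on organ pipe and 13.17, 13.58 and 13.31 on agria. All Punta Prieta arrays but 1 lay below all of Las Bocas. The call was lost in 9 of the 16 fits that leave out 1 egg array.

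In pupae limma called 0 members for population and 1.48% of all transcripts, with 0 members at an unadjusted p under 0.05. In adult females it called 1 member, lower in Punta Prieta, beside 15.1% of all transcripts called and 5.73% called lower, with 6 members at an unadjusted p under 0.05. FBtr0163480 averaged 12.01 in Punta Prieta and 12.48 in Las Bocas, a difference of −0.47 ± 0.14 (SE, limma, adjusted p = 0.0139). The members' median was −0.09, with 31 below 0. With the spread taken from the adult stages alone, 20 members were called, 3 higher and 17 lower in Punta Prieta. The share of all transcripts in that setting is not given here.

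Stage steps after the larval arrays were called at an adjusted p under 0.05 and a log2 change of at least 1. From early to late pupae limma called 26 of the 50, 25 higher and 1 lower in late pupae, beside 21.4% of all transcripts called, 9.26% higher and 12.2% lower. FBtr0168806 rose most, by 4.00 ± 0.23 (SE, limma, adjusted p = 6.87e-33). Its late pupal arrays on organ pipe read 15.23 in Las Bocas and 15.05, 15.12, 15.35 and 15.02 in Punta Prieta. Its early pupal arrays on organ pipe read 10.61, 10.89 and 11.43 in Las Bocas and 10.49, 10.91, 12.21 and 11.03 in Punta Prieta. Counting both diets, its lowest late pupal array read 13.47 and its highest early pupal array 12.21, and in 0-day females its mean was 15.50. FBtr0162989, the dimmest member in larvae, rose by 3.46 ± 0.40 (SE, limma, adjusted p = 2.30e-13). FBtr0172035 fell by 1.05 ± 0.19 (SE, limma, adjusted p = 8.01e-07), to a mean of 10.95 in late pupae against 12.00 in early pupae. Its step fell short of 1 with arrays centred on their medians (−0.97) and with array weights (−0.999), and without Las Bocas organ pipe early pupa replicate 3 (−0.99) or the Las Bocas organ pipe late pupa (−0.96).

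From late pupae to 0-day females limma called 19 of the 50, 17 higher and 2 lower, beside 30.8% of all transcripts called, 16.1% higher and 14.8% lower. FBtr0168962 rose by 2.19 ± 0.26 and FBtr0167029 by 2.15 ± 0.25 (SE, limma). With array SD as a covariate these steps were 1.08 and 0.86, and FBtr0167029 no longer reached the limit of 1. FBtr0163352 fell by 1.41 ± 0.24 and FBtr0163353 by 1.04 ± 0.23 (SE, limma), and both are among the 6 larval transcripts named above. FBtr0163353 missed the limit of 1 with quantile normalization repeated (−0.80). It also missed it, at −0.95 to −0.98, without Las Bocas agria late pupa replicate 2, the Las Bocas organ pipe late pupa or Punta Prieta agria late pupa replicate 4. With the SD of each array's values as a covariate 12 were called, 2 higher and 10 lower, and 4 of them were among the 19. The share of all transcripts with that covariate is not given here. The members' median step was 0.54, and −0.30 with that covariate, so its direction here depends on how the arrays' spread is treated.

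From 0-day to 3-day females limma called 4 of the 50, 3 higher and 1 lower, beside 5.73% of all transcripts called, 3.6% higher and 2.13% lower. FBtr0165976 rose by 1.64 ± 0.17 and FBtr0161265 by 1.13 ± 0.22 (SE, limma). With array SD as a covariate 4 were called, 1 higher and 3 lower, and FBtr0161265, at 0.95, missed the limit of 1. The share of all transcripts in that setting is not given here. FBtr0172226 fell by 2.13 ± 0.31 (SE, limma, adjusted p = 3.21e-09), to a mean of 9.41 in 3-day females against 11.54 in 0-day females. The 2 transcripts that lead the larval ranking thus took opposite courses after eclosion.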

How the data were processed

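The authors deposited 1 table of log2 values, 1 column per array, and per the submitters' processing notes these came from RMA. Which arrays RMA was run over, and its version, the sources used here do not give. The values ran from 7.25 to 15.93, array medians from 10.96 to 11.48 and array SDs from 1.28 to 1.77. No scanner files or background values were used, and without slide labels a slide block could not be fitted. The number of arrays in a group and their spread within it limit the precision.

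Each group is 1 population, diet and stage: 54 groups, 8 of them with 1 array. For 1 array of 14-day females (Las Bocas, agria) 1 label says 10 days, and 1 array of Punta Prieta L3 on agria has another replicate number in its description. Titles were followed. The 2 arrays of 4-day females are in the fit and in no comparison. The labels do not place replicates in separate cultures, and p-values then measure only sample spread, which may be technical.

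The members, lists and tests were chosen with earlier results of these data known. limma 3.58.1 in R 4.3.3 (lmFit, eBayes) was fitted with 1 mean per group and 118 residual degrees of freedom. Contrasts weigh groups equally, and p-values were adjusted by Benjamini-Hochberg over 14528 transcripts within a contrast. Calls were made at an adjusted p under 0.05. Diet contrasts are organ pipe minus agria, population contrasts Punta Prieta minus Las Bocas, stage steps later minus earlier. Larval arrays are in the fit and its estimate of the spread, and were described without tests.

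Because 0 IDs matched the annotation table, transcripts are named by rank (the first 2, 49 to 52), the lowest difference at each instar, the highest and lowest larval level, the largest and smallest SD, and at most 2 calls each way per contrast. The steps were tested on simulated data. Alternatives changed centring, quantile normalization, array weights, the source of the spread, the replicate block, dim transcripts, array SD, arrays nearer another stage, and left out each array. Larval medians under alternatives, and instar steps, stage profile and correlations without arrays nearer another stage, were added after the data were seen.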

Additional observations from a re-analysis of the deposited data

Results flagged for a closer look

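The mean of the 50 transcripts on each array was set against the other arrays of its group in the 28 groups of 4 to 10 arrays. In 3 of them 1 array lay far from the others relative to the range of the group, by Dixon's test at its 95% level, and chance alone flags about 1 group in 20. Las Bocas 0-day females on agria, replicate 4, had 12.77, with the others between 13.31 and 13.35. That array is also one of those nearer to another stage. Punta Prieta 0-day females on organ pipe, replicate 5, had 13.23, with the others between 13.33 and 13.36. Punta Prieta 18-day females on agria, replicate 2, had 12.66, with the others between 12.54 and 12.55. No larval group had such an array.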

How the results depend on the processing

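The choice of members moved most. Of the 50, 31 remained with group medians, 33 with quantile normalization repeated, 10 on L1 and L2 alone, 23 with L1 to L3 in Las Bocas and L1 and L2 in Punta Prieta, and 25 without larval arrays nearer another stage. Leaving out 1 larval array kept 23 to 48. It kept 32 without Las Bocas agria L2 replicate 1, 30 without Las Bocas organ pipe L1 replicate 4, 29 and 31 without Las Bocas organ pipe L3 replicates 1 and 2, 28 and 24 without Punta Prieta organ pipe L1 replicates 1 and 2, and 23 without the single Punta Prieta organ pipe L3 array. Larval medians kept their sign when 1 array was left out, except at L2 in Punta Prieta (−0.27 to 0.14). That of L1 in Punta Prieta ran from −1.56 to −0.14, the ends being the fits without organ pipe replicates 1 and 2. The number of members called for diet was, with array weights, whose fit did not reach its convergence tolerance, 2 in pupae, 24 in early pupae (all lower), 12 in late pupae, 10 in adults, 14, 9 and 3 at 3, 6 and 10 days, and 7 for the interaction in pupae. For population those weights gave 6 in eggs, 3 in pupae and 12 in adults. The shares of all transcripts with these weights and in the alternatives below are not given here. The counts therefore do not show whether the members differ from transcripts at large. With the spread taken from the stages of the contrast alone, diet called 0 in pupae, 0 in late pupae, 7 in adults, 10 at 3 days and 2 at 10 days, and population 2 in eggs and 20 in adults. With array SD as a covariate the counts were 2 for diet at 3 days, 2 for population in eggs, 9 for population in adults and 12 from late pupae to 0-day females. With quantile normalization repeated they were 0 for diet in adults, 0 for population in eggs and 12 from late pupae to 0-day females. Without arrays nearer another stage they were 0 for diet in pupae and late pupae, 1 in early pupae and at 3 days, 2 for population in eggs and 3 in adults. Without the dimmest 25% of transcripts population in adults called 2. Leaving out each array in turn gave 0 to 1 for diet in pupae, 0 to 4 in early pupae (1 without Las Bocas agria replicate 4 or Punta Prieta organ pipe replicate 3), 1 to 9 in late pupae, 0 to 1 at 3 days (1 without Punta Prieta organ pipe replicate 2), 0 to 3 for the interaction in pupae (3 without Punta Prieta agria late pupa replicate 4), 0 to 2 for population in eggs and 1 to 2 in adults (2 without Las Bocas agria 0-day, 14-day or 6-day replicate 3, Las Bocas organ pipe 10-day replicate 2, Punta Prieta agria 24-day replicate 1 or 6-day replicate 5). Late pupae were not tested without the single Las Bocas organ pipe array. The pupal call of FBtr0163131 was lost in 7 of 25 such fits: without Las Bocas organ pipe early pupa replicate 2 or late pupa replicate 1, Punta Prieta agria early pupa replicate 3 or late pupa replicates 2 or 3, or Punta Prieta organ pipe late pupa replicates 3 or 4. The egg call of FBtr0168023 was lost without Las Bocas agria replicates 2 or 3, Las Bocas organ pipe 2 or 3, Punta Prieta agria 1, 3 or 4, or Punta Prieta organ pipe 1 or 4. The cause of these changes was not tested. Other alternatives left each count within 1.5 times its value. The labels share replicate numbers, but departures of the 64 same-numbered pairs had a median correlation of −0.04 (−0.68 to 0.59). The 207 pairs with unlike numbers had 0.002 (−0.82 to 0.72). Same-numbered arrays were thus not closer on the median, and with so wide a range the check cannot exclude pairing within single groups. With the replicate block limma called 1 member for diet in pupae and 1 in adults, 25 from early to late pupae, 19 from late pupae to 0-day females and 3 from 0-day to 3-day females.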
